A study of Sus scrofa with 6 samples.

Results

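The genes described here encode parts of the centrosome and of augmin, measured as poly(A) RNA in pig 4-cell embryos that grew from oocytes activated by an electric pulse and not by a sperm. They were taken by name from the deposited table. A gene was included if it was protein-coding and carried a CEP symbol followed by a number, HAUS1 to HAUS8, TUBGCP2 to TUBGCP6, or one of PLK4, SASS6, STIL, CENPJ, CNTROB, PCNT, CDK5RAP2, NEDD1, PCM1 and NIN. The rule found 59 of the 30376 genes in the table, of which 20674 are protein-coding. It uses gene names only and no measured value, though it was chosen with earlier results of these data known.

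The study asked how heat affects the start of embryonic transcription in pigs. The HT group held 3 libraries of embryos cultured at 41.5 °C, and the Control group held 3 libraries of embryos cultured at 38.5 °C. In both groups the oocytes were activated with 2 pulses of direct current (120 V, 60 µs), washed and then cultured under mineral oil in PZM-5 medium with albumin, in a humid atmosphere with 5% CO2, for 4 days until the 4-cell stage. Each library was made with a low-input cDNA kit from a lysate of pooled samples, as the labels call them. The labels give about 300 samples and do not state whether that number is per library. The labels' genotype field reads WT for Control and HT for the heated group, which repeats the temperature and names no allele. The labels give no breed or age and do not say whether the 3 libraries of a group came from separate cultures, so each p-value reflects variation among 3 libraries a group that could be purely technical.

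The centrosome of most animal cells holds a pair of centrioles within a matrix called the pericentriolar material. The kinase PLK4 with STIL and SASS6 starts each new centriole, and PCNT, CDK5RAP2 and CEP192 build the matrix. That matrix recruits the gamma-tubulin ring, whose subunits TUBGCP2 to TUBGCP6 shape the template on which microtubules begin. Augmin, a complex of HAUS1 to HAUS8, brings further gamma-tubulin rings to the sides of spindle microtubules that already exist. Mammalian oocytes lose their centrioles as they grow. In the pig the sperm carries a centriole into the egg, so an embryo from an electrically activated oocyte divides without one until centrioles form anew, and its spindles can rely on augmin and on matrix proteins at spindle poles that lack centrioles.

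The libraries held 28114005 to 30079385 counted reads each. All 11 oocyte and early embryo markers were detected well enough to test, with a summed TPM (transcript abundance scaled by length and library) of 5202 to 9344 in HT and 5814 to 9197 in Control. Markers of cumulus and granulosa cells summed to 11.3 to 13.3 TPM in HT and 8.72 to 11.7 TPM in Control. Of the 14 in the table, 7 could be tested. The highest mean over the 6 libraries was that of INHBA at 6.07 TPM, followed by TNFAIP6 at 1.8 and GREM1 at 1.55 TPM. FSHR, CYP11A1, AMH and FOXL2 had no read. Of 11 sperm and spermatid markers in the table, ACRV1 and AKAP4 could be tested, and the protamines PRM1 and PRM2 and the acrosomal protease ACR had no read in any library. The libraries were pools, in which fewer cells and less RNA per cell cannot be told apart.

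Transcripts of the centrosome were present at levels that spanned a wide range between genes. The mean deposited TPM over all 6 libraries was highest for CEP57 at 236.9 and CEP95 at 154.9. These were followed by HAUS3 at 73.6, SASS6 at 69.3, CEP70 at 68.8, HAUS1 at 68.0, HAUS4 at 54.7 and CEP290 at 52.0. The 8 highest thus included 3 augmin subunits and the centriole cartwheel protein SASS6. In all, 23 genes had a mean above 10 TPM and 11 had a mean below 1 TPM.

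The low end held genes of several roles, CEP131 at 0.137 TPM among them, while the ring subunit TUBGCP5 stood higher at 3.99 TPM. PCNT, the pericentrin scaffold, averaged 0.120 TPM, CEP250, which ties paired centrioles together, 0.085 TPM, and the ring subunits TUBGCP2 and TUBGCP6 averaged 0.133 and 0.142 TPM. CEP170B and CEP72 had no read in any of the 6 libraries. CEP295NL, which lies within the span of TIMP2, had 9, 0 and 12 reads in HT and 7, 4 and 15 in Control and, like CEP170B and CEP72, did not pass the filter on low counts. The other 56 genes were tested. Their median level was 8.07 TPM against 2.35 TPM over all 16056 genes tested, and 42 of the 56 lay above 2.35 TPM.

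Neighbours in this order were mostly not separated by their libraries. Of 55 neighbouring pairs of tested genes, 52 had overlapping TPM ranges. The exceptions were CEP95 above HAUS3, where the lowest library of CEP95 had 100.1 TPM and the highest of HAUS3 had 92.1 TPM, HAUS5 above CEP97 (0.521 against 0.503 TPM) and CEP97 above TUBGCP6 (0.284 against 0.254 TPM). The plot of TPM by library shows this order within each role.

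**Figure D1:**
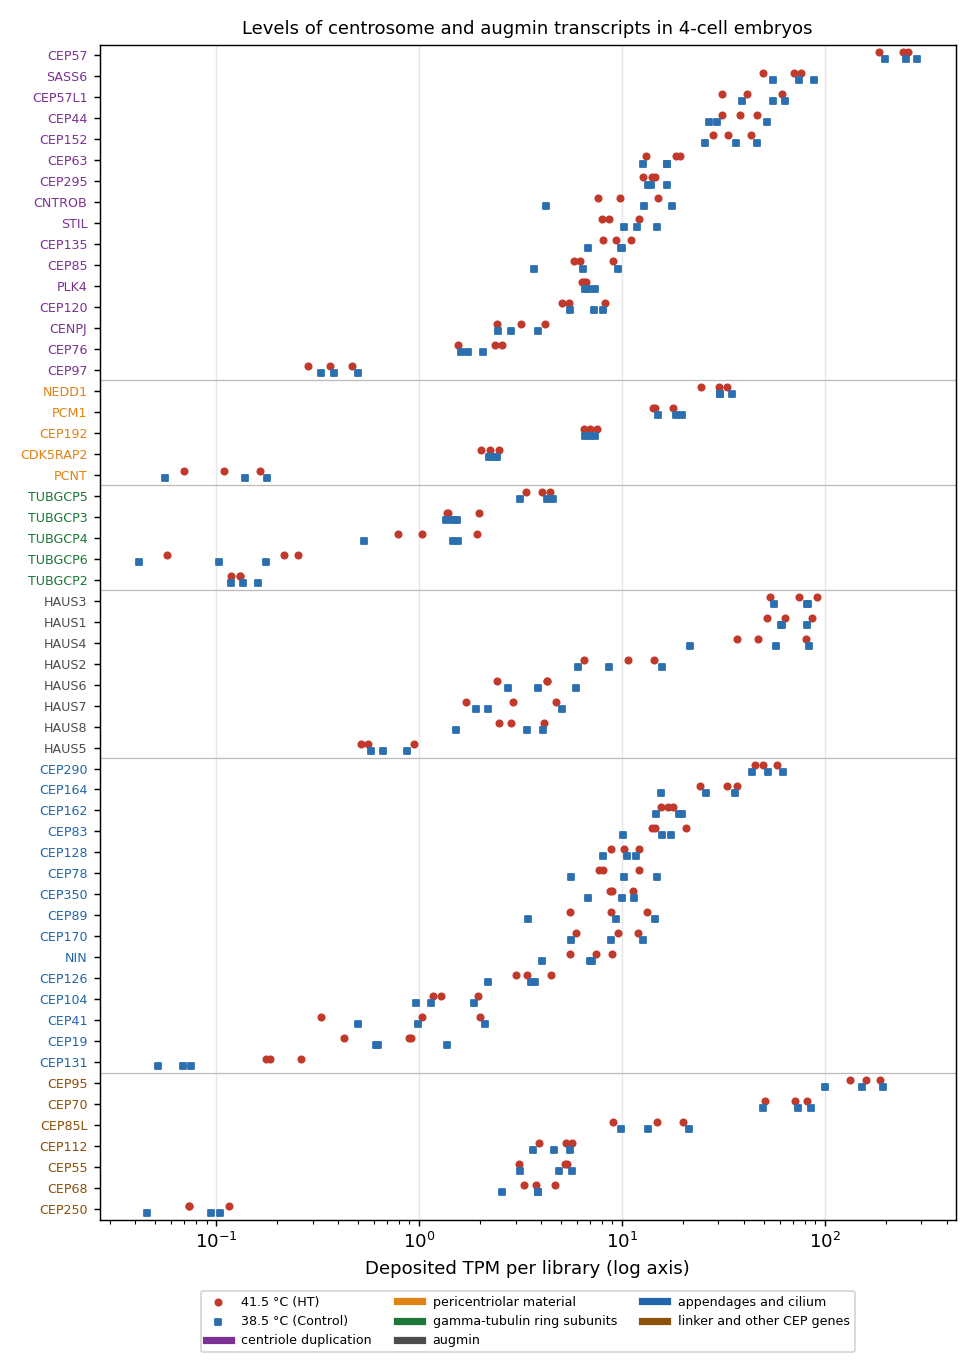
Deposited TPM (log axis) of the 56 tested centrosome and augmin genes in the 3 HT libraries (41.5 °C, circles) and the 3 Control libraries (38.5 °C, squares), grouped by role and ordered by mean within it. CEP57 and CEP95 lie farthest to the right with means of 236.9 and 154.9 TPM, and the HT and Control points of most genes overlap.

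Heat was not followed by a detectable change in any of these genes. In edgeR's quasi-likelihood test, adjusted over all 16056 genes by Benjamini-Hochberg, 0 of the 56 tested members passed an adjusted p of 0.05, as did 0 genes of the whole table (0%). The adjusted p was 0.999923 for every one of the 56. At an unadjusted p below 0.05 there was 1 member, CEP131, where the background was 297 genes (1.85%). DESeq2 called 5 genes of the whole table and 0 members.

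The differences themselves were small. The log2 fold change (HT over Control) lay between -0.5 and 0.5 for 54 of the 56 genes, the exceptions being CEP131 at 1.45 and TUBGCP6 at 0.61. The lowest was STIL at -0.44. The 95% interval of the change stayed within 2-fold either way for 41 of the 56 genes, against 49.6% of all genes tested, and within 4-fold for 54, against 91.7%. For these 41 genes, then, a change beyond 2-fold lay outside the interval, while smaller changes inside each gene's interval were not excluded.

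The sign of the differences leaned towards Control. A log2 fold change below 0 was found in 40 of the 56 members, against 52.5% of all genes, and their median was -0.10 against -0.02 over all genes. With the library total as the only scaling, the values of all genes shifted upward together: 27 of 56 members were below 0, and the median was 0.0005 for members against 0.0777 for all genes, so members stayed below all genes by about as much. Leaving out HT replicate 1 gave a median of -0.0179 for members, 29 of them below 0, against -0.0073 for all genes. Leaving out Control replicate 3 gave -0.0422 for members, 30 of them below 0, against 0.014 for all genes. The summed TPM of all members was 997, 1217 and 1427 in HT libraries 1, 2 and 3 and 959.5, 1258 and 1486 in Control libraries 1, 2 and 3, so the sums of the groups overlapped.

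**Figure D2:**
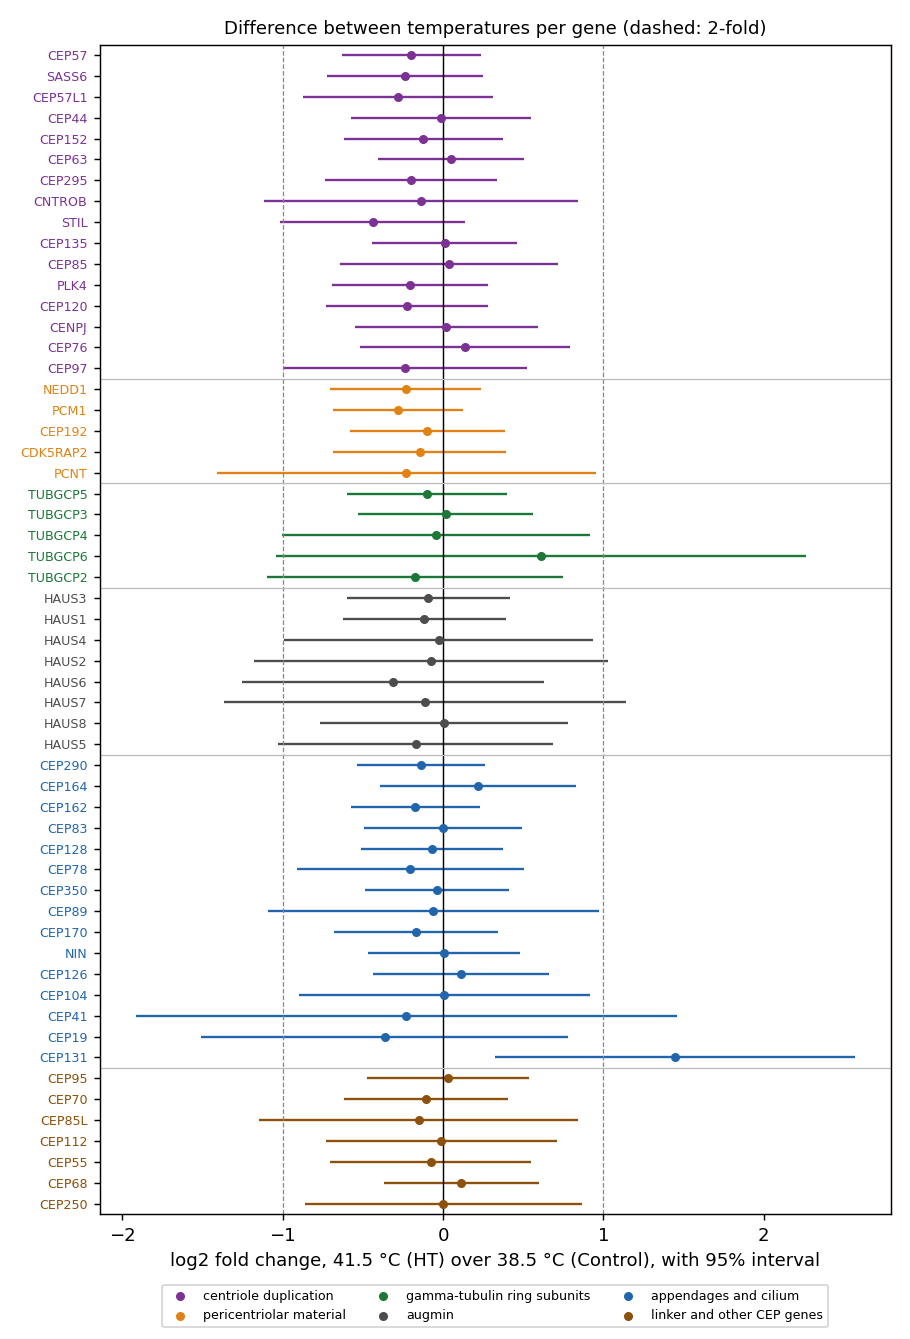
Log2 fold change of each tested member, HT over Control, with its 95% interval from edgeR, coloured by role; the vertical line marks no difference. All intervals but that of CEP131 (0.33 to 2.57) include 0, and 54 of the 56 points lie between -0.5 and 0.5.

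The genes that start and build centrioles gave the lowest value of the whole set, in STIL. Of the 16 tested genes of centriole duplication, 5 had a log2 fold change above 0 and 11 below, with a median of -0.17 and 0 called. STIL, the protein that PLK4 phosphorylates to recruit SASS6 (chromosome 6, 164197511 to 164266615, Sscrofa11.1), had 54.9, 43.1 and 38.3 CPM in HT and 80.1, 50.2 and 54.5 CPM in Control, where CPM is the read count scaled to library size, with TMM factors. The groups overlapped, and Control replicate 1 was the highest of the 6. The means were 45.4 ± 8.53 CPM in HT and 61.6 ± 16.2 CPM in Control (SD, n = 3 each), a log2 fold change of -0.44 (SE 0.25, 95% interval -1.02 to 0.14, edgeR unadjusted p = 0.119). Without Control replicate 1 it was -0.21.

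PLK4, the kinase that limits how many centrioles form, had 17.2, 17.55 and 16.35 CPM in HT and 23.3, 19.4 and 16.3 CPM in Control. Its HT libraries lay close together and within the lower part of the Control range, at a log2 fold change of -0.21 (SE 0.21). SASS6, which forms the cartwheel, had 180.1, 254.5 and 250.3 CPM in HT and 238, 266 and 302 CPM in Control. HT replicate 1 stood apart below the other 5 libraries, and the log2 fold change was -0.24 (SE 0.21).

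CEP152, the scaffold that binds PLK4, had 119, 142 and 166 CPM in HT and 132, 151.5 and 182 CPM in Control, so the groups interleaved. CENPJ, which sets centriole length, had 8.86, 11.7 and 13.8 CPM in HT and 10.4, 10.2 and 13.3 CPM in Control, for a log2 fold change of 0.02 (SE 0.25). CEP120, a partner of CENPJ in elongation, had 20.7, 19.2 and 28.3 CPM in HT and 24.5, 26.9 and 28.1 CPM in Control. For both genes the highest of the 6 libraries was HT replicate 3.

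CEP57, which holds mother and daughter centrioles together and was the most abundant transcript of the set (chromosome 9, 27812944 to 27858293), had 390.3, 516 and 495 CPM in HT and 499.6, 526 and 580.0 CPM in Control. Its group means were 467 ± 67.3 CPM in HT and 535 ± 41.0 CPM in Control (SD, n = 3 each), a log2 fold change of -0.20 (SE 0.19), and HT replicate 1 stood below the rest. Its paralogue CEP57L1 had 45.6, 59.8 and 82.2 CPM in HT and 64.4, 76.9 and 86.5 CPM in Control. CNTROB, centrobin of the daughter centriole, had 23.3, 29.7 and 42.0 CPM in HT and 15.3, 38.6 and 50.6 CPM in Control. The lowest and the highest of its 6 libraries were both Control, a 3.31-fold range within that group, and its log2 fold change was -0.14 (SE 0.42).

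All 5 genes of the pericentriolar material and its satellites had a log2 fold change below 0, with a median of -0.23 and 0 called. The sign held for PCM1 and NEDD1 whichever library was left out and under every scaling run. It turned for the others: CEP192 was at 0.0512 without Control replicate 1, 0.0303 without HT replicate 3 and 0.0076 with the library total as the only scaling, CDK5RAP2 was at 0.0021 without HT replicate 3, and PCNT was at 0.0827 without HT replicate 3 and 0.0401 without Control replicate 2. PCM1, the backbone of centriolar satellites (chromosome 17, 5596926 to 5705752), had 79.0, 77.8 and 89.9 CPM in HT and 96.8, 100.6 and 102 CPM in Control. All HT libraries were below all Control libraries, which held for 2 of the 56 members (PCM1 and CEP162) and for 4.05% of all genes. Its means were 82.2 ± 6.65 CPM in HT and 99.9 ± 2.81 CPM in Control (SD, n = 3 each), with a log2 fold change of -0.28 (SE 0.17, 95% interval -0.68 to 0.12, edgeR unadjusted p = 0.147). On the deposited TPM scale, PCM1 had 14.7, 14.3 and 17.8 in HT and 15.2, 18.6 and 19.9 in Control, where the groups overlapped.

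CEP192, which brings PLK4 and Aurora A to the centrosome, had 52.7, 48.4 and 41.3 CPM in HT and 61.0, 45.6 and 45.8 CPM in Control. CDK5RAP2, an anchor and activator of the gamma-tubulin ring, had 10.2, 11.2 and 8.31 CPM in HT and 13.0, 10.45 and 9.50 CPM in Control. NEDD1, the adaptor that joins the ring to centrosomes and to augmin, had 74.0, 100.5 and 82.6 CPM in HT and 109, 107 and 86.2 CPM in Control. In each of the 3 genes the groups overlapped, and the highest library was Control replicate 1.

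PCNT, on an unplaced scaffold, was counted at 1.99, 1.32 and 0.785 CPM in HT and 2.0, 2.14 and 0.664 CPM in Control. The log2 fold change of -0.23 had an SE of 0.51, so at this depth its 95% interval ran from -1.41 to 0.95. Measured per length, the matrix proteins stood far apart, with mean TPM over the 6 libraries of 30.6 for NEDD1, 16.8 for PCM1, 6.999 for CEP192, 2.29 for CDK5RAP2 and 0.120 for PCNT. The values are of polyadenylated mRNA and say nothing of how much protein the oocyte had stored.

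The gamma-tubulin ring subunits were among the scarcer transcripts and showed no common direction. Of 5, the log2 fold change was above 0 in 2 and below 0 in 3, with a median of -0.04 and 0 called. TUBGCP5, the most abundant on the TPM scale at a mean of 3.99, had 9.24, 12.02 and 10.01 CPM in HT and 10.2, 12.3 and 11.02 CPM in Control. TUBGCP3, a core subunit, had 4.04, 4.00 and 5.199 CPM in HT and 4.69, 4.38 and 4.02 CPM in Control. TUBGCP4 had 1.95, 2.40 and 4.06 CPM in HT and 1.54, 3.76 and 3.35 CPM in Control. The groups overlapped in all 3. The span of TUBGCP4 shares 2978 bases with that of TP53BP1 on the opposite strand, where reads cannot be told apart. TP53BP1 had 607 to 927 reads in HT and 686 to 904 in Control, against 57 to 124 and 40 to 109 for TUBGCP4.

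TUBGCP2, the other core subunit, had 0.513, 0.556 and 0.491 CPM in HT and 0.577, 0.655 and 0.531 CPM in Control. Its log2 fold change was -0.18 (SE 0.40), on 15 to 19 reads a library. Its span shares 5 bases with that of ZNF511. TUBGCP6 had 1.13, 1.22 and 0.262 CPM in HT and 1.0, 0.517 and 0.199 CPM in Control. Replicate 3 was the lowest library in either group, and the log2 fold change of 0.61 had an SE of 0.72.

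Augmin transcripts spanned a wide range of levels between subunits, within the 0.0171 to 79606.7 TPM covered by all genes tested. The highest mean TPM of a subunit (HAUS3) was 106.1 times the lowest (HAUS5). Together the 8 subunits summed to 169.9, 206.5 and 275.3 TPM in HT and 168.1, 217.9 and 267.1 TPM in Control, so the sums covered nearly the same range. HAUS1, HAUS3 and HAUS4 made up 84.1%, 89.7% and 94.4% of augmin TPM in HT and 82.65%, 92.5% and 93.25% in Control. The log2 fold change was above 0 in 1 subunit and below 0 in 7, with a median of -0.10 and 0 called. With the library total as the only scaling, HAUS2, HAUS3, HAUS4 and HAUS7 were also above 0.

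In human augmin HAUS1, HAUS3, HAUS4 and HAUS5 form one subcomplex. HAUS1 had 41.4, 50.1 and 62.6 CPM in HT and 57.3, 48.4 and 61.4 CPM in Control. HAUS3 (chromosome 8, 1187149 to 1198517) lies inside the span of POLN on the same strand and had 108, 148.5 and 168 CPM in HT and 133.5, 162 and 156 CPM in Control. The groups overlapped for both, with a log2 fold change of -0.12 (SE 0.22) for HAUS1 and -0.09 (SE 0.22) for HAUS3. HAUS4 had 43.2, 55.6 and 85.8 CPM in HT and 30.01, 65.6 and 92.4 CPM in Control. Its Control libraries spanned 3.08-fold and enclosed all HT libraries. HAUS5 had 3.35, 1.84 and 1.80 CPM in HT and 3.66, 2.31 and 1.93 CPM in Control, and replicate 1 was the highest library in either group.

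The other subcomplex holds HAUS2, HAUS6, HAUS7 and HAUS8, of which HAUS6 binds NEDD1 and HAUS8 binds microtubules. HAUS2 had 13.9, 10.1 and 5.76 CPM in HT and 17.9, 5.72 and 7.74 CPM in Control. HAUS6 had 23.6, 23.35 and 12.03 CPM in HT and 38.2, 21.0 and 14.1 CPM in Control, for a log2 fold change of -0.31 (SE 0.41). That value rested on single libraries, since it was 0.1625 without Control replicate 1 and -0.0151 without HT replicate 3. Control replicate 1 was the highest library for both HAUS2 and HAUS6. HAUS7, whose span encloses that of TREX2, had 14.2, 8.48 and 4.64 CPM in HT and 17.7, 6.45 and 5.35 CPM in Control. HAUS8 had 3.08, 3.47 and 4.58 CPM in HT and 2.23, 4.14 and 4.71 CPM in Control. HAUS7 was highest and HAUS8 lowest in replicate 1 of either group.

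The ratio between some augmin subunits therefore differed from library to library within each temperature. The pair shown was chosen after the values were seen. The ratio of HAUS4 to HAUS7 in CPM was 3.05, 6.56 and 18.5 in HT and 1.69, 10.2 and 17.3 in Control, a 10.9-fold spread over the 6 libraries, while its means were 9.36 ± 8.09 in HT and 9.72 ± 7.81 in Control (SD, n = 3 each). It rose from replicate 1 to replicate 3 in both groups. HAUS4 was lowest in replicate 1 and highest in replicate 3 of both groups, as were 16.9% of all genes. HAUS7 had the reverse order, as did 20.0% of all genes, so these orders are not particular to augmin. The ratio of HAUS3 to HAUS1 was steadier, at 2.61, 2.96 and 2.68 in HT and 2.33, 3.35 and 2.54 in Control.

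**Figure D3:**
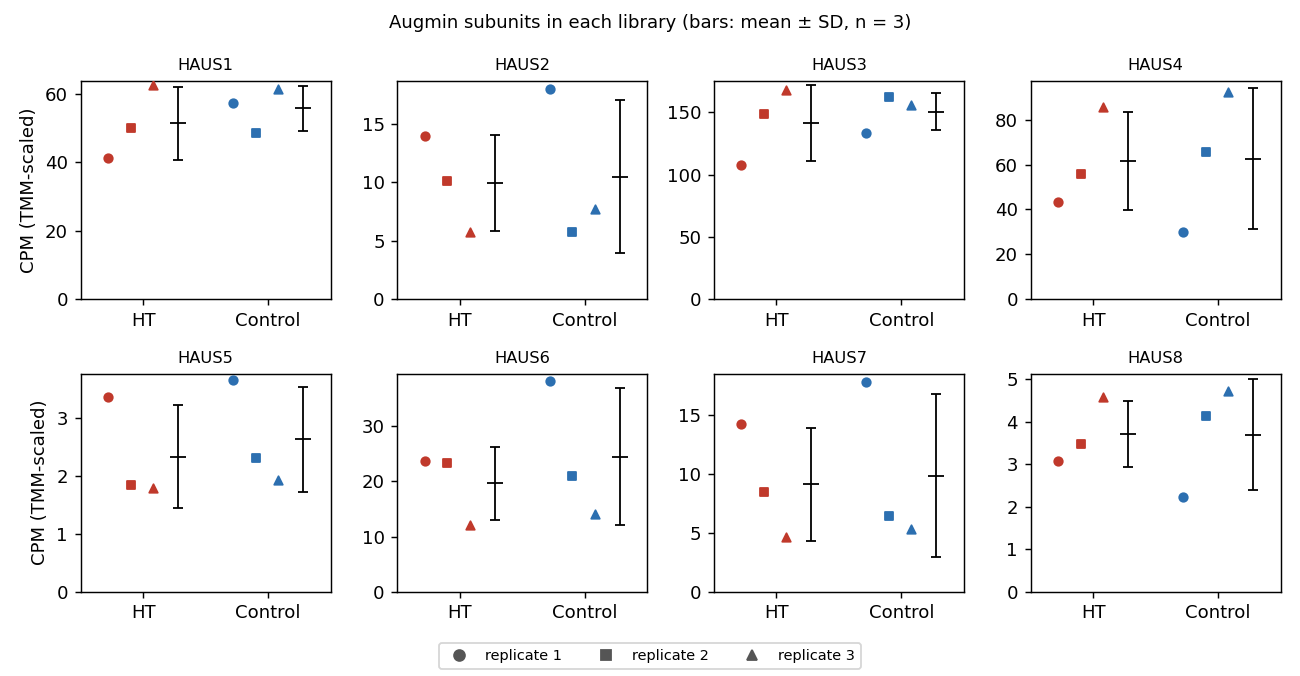
CPM of each augmin subunit in the 3 HT libraries (red) and the 3 Control libraries (blue), replicate numbers by marker shape, with mean ± SD (n = 3) in black and axes that start at 0. The groups overlap in all 8 panels, and HAUS4 at 43.2 to 85.8 CPM in HT lies inside its Control range of 30.01 to 92.4 CPM.

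Genes of the centriolar appendages and the cilium included the gene with the largest difference, CEP131, and otherwise differed little. Of 15 tested among 16, the log2 fold change was above 0 in 5 and below 0 in 10, with a median of -0.06 and 0 called. CEP131, a satellite and cilium protein also known as AZI1 (chromosome 12, 1537900 to 1556931), had 16, 16 and 23 reads in HT and 7, 7 and 5 reads in Control. In CPM that was 0.548, 0.556 and 0.752 in HT and 0.269, 0.241 and 0.166 in Control. The means were 0.619 ± 0.116 CPM in HT and 0.226 ± 0.0534 CPM in Control (SD, n = 3 each). All HT libraries were above all Control libraries, which held for CEP131 alone among the members and for 3.66% of all genes.

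The CEP131 means differed 2.74-fold, a log2 fold change of 1.45 (SE 0.49, 95% interval 0.33 to 2.57). The edgeR unadjusted p was 0.0167, and it was 0.0603 without HT replicate 3 and 0.0507 without Control replicate 3. At a mean of 0.137 TPM it was among the lowest transcripts tested, since 5.04% of tested genes were lower. Of 8 markers of ciliated cells, 4 could be tested. Among these, 3 had a log2 fold change above 0, as did 7628 of all 16056 genes tested. The highest was TPPP3 at 0.86 (SE 0.41), and DNAH5 was below 0 at -0.21 (SE 0.34). The summed level of the 8 markers was 6.80 to 10.4 TPM in HT and 5.84 to 8.35 TPM in Control. On average most of it came from CCDC39, with a mean of 6.14 TPM over the 6 libraries. FOXJ1, the master regulator of motile cilia, had no read. The part of these markers in the CEP131 result was not tested.

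CEP162, which marks the axoneme for the ciliary transition zone, had 70.0, 75.8 and 72.5 CPM in HT and 77.9, 88.2 and 80.0 CPM in Control. All HT libraries were lower, by a log2 fold change of -0.17 (SE 0.17, edgeR unadjusted p = 0.349), and on the TPM scale the groups overlapped. CEP290, of the transition zone itself, had 268.5, 294 and 312 CPM in HT and 308, 307.6 and 346 CPM in Control. NIN, ninein, which anchors microtubules at subdistal appendages, had 38.2, 42.9 and 51.8 CPM in HT and 38.5, 46.3 and 47.7 CPM in Control, a log2 fold change of 0.0048 (SE 0.21). CEP290 and NIN overlapped between the groups.

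The distal appendage genes that dock the centriole to a membrane were at moderate levels. CEP164 averaged 28.7 TPM, CEP83 15.5 TPM and CEP89 9.21 TPM over the 6 libraries. The log2 fold change was 0.22 (SE 0.27) for CEP164, -0.0008 (SE 0.21) for CEP83 and -0.06 (SE 0.45) for CEP89, each within its SE. CEP41, needed for tubulin glutamylation in cilia, was the most uneven gene between libraries: its highest library was 6.48 times its lowest in HT and 5.18 times in Control.

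The remaining genes belong to the centriole linker or have roles less well fixed. Of 7 tested among 9, the log2 fold change was above 0 in 3 and below 0 in 4, with a median of -0.01, a range from -0.15 to 0.11 and 0 called. CEP95, the second most abundant transcript, had 273.5, 325 and 347.5 CPM in HT and 242, 308.5 and 374 CPM in Control. CEP70, which binds gamma-tubulin in human cells, had 108, 149 and 156 CPM in HT and 123.3, 152.5 and 168.5 CPM in Control. The groups overlapped for both, with a log2 fold change of 0.03 (SE 0.22) for CEP95 and -0.11 (SE 0.22) for CEP70. A gene annotated as a near copy of CEP70, LOC110258506, averaged 9.01 TPM, and the rule for reads shared by the copies was not stated in the labels.

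Members varied from library to library within each temperature. The median ratio of the highest to the lowest library was 1.425 in HT and 1.434 in Control for the 56 members, against 1.61 in HT and 1.71 in Control over all genes tested. The median fold between the 2 group means, larger over smaller, was 1.09 for members and 1.15 for all genes. In 9 of the 56 members the highest library exceeded 2 times the lowest in both groups, against 19.0% of all genes; they were CEP19, CEP41, CEP85L, CEP89, HAUS2, HAUS7, PCNT, TUBGCP4 and TUBGCP6.

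Some members shared an order of libraries across groups. In 15 of the 56, HAUS4, HAUS8 and CNTROB among them, replicate 1 was the lowest and replicate 3 the highest library in both groups, against 16.9% of all genes. In 8 others, HAUS5, HAUS6, HAUS7, CEP41 and CEP85L among them, replicate 1 was the highest and replicate 3 the lowest in both groups, against 20.0% of all genes. CEP85L, for example, had 125.7, 92.4 and 51.4 CPM in HT and 159, 82.4 and 58.1 CPM in Control. The labels do not say whether same-numbered libraries of the groups share a batch or a day.

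**Figure D4:**
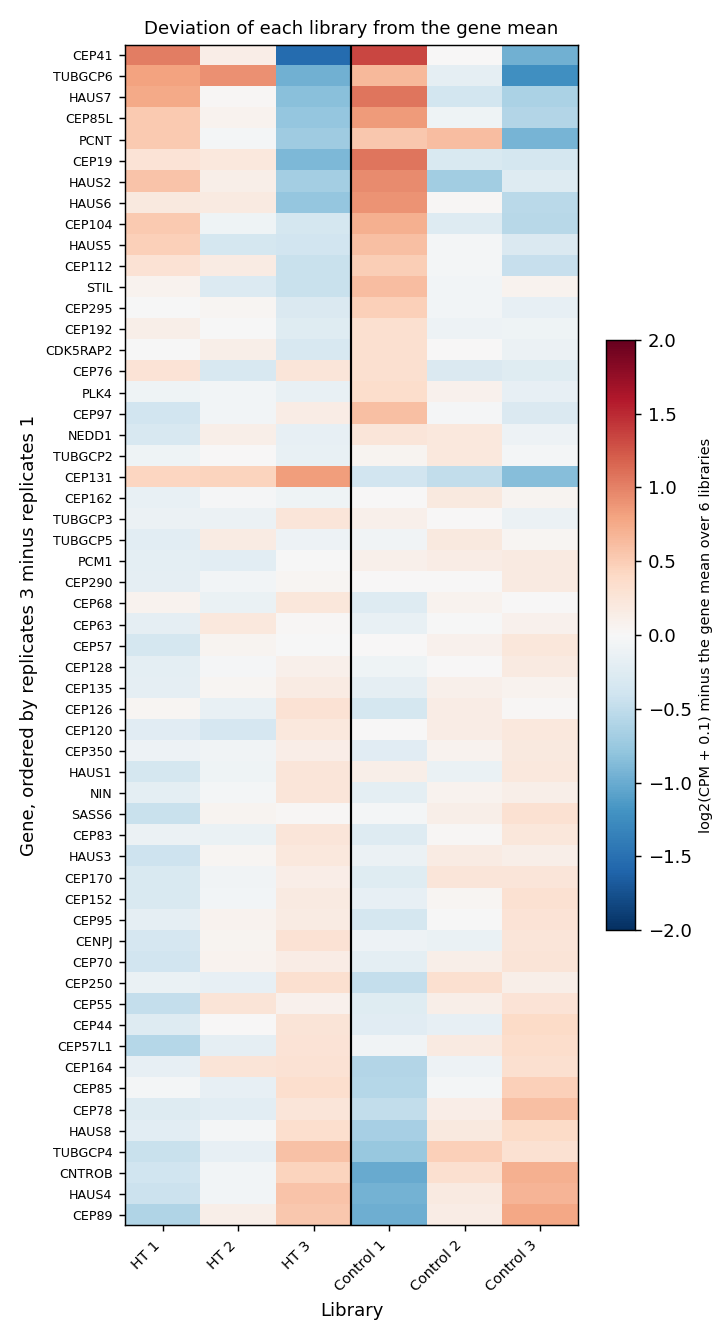
Deviation of log2(CPM + 0.1) from the gene's mean over 6 libraries for each tested member, HT libraries left of the line and Control libraries right of it. Red is above and blue below the gene mean; CEP41 and HAUS7 at the top are high in replicate 1 of both groups, HAUS4 and CEP89 at the bottom are high in replicate 3 of both, and CEP131 alone is red in all HT and blue in all Control libraries.

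No partner of these genes in spindle assembly or centriole structure was called, in a fit that called 0 of all 16056 genes. Of 64 such genes listed, 60 were in the table by symbol and 58 were tested: 20 had a log2 fold change above 0 and 38 below, with a median of -0.06 and 0 called. Gamma-tubulin itself (TUBG1, TUBG2) was not matched by symbol and was not analysed here. The most abundant were CETN2, the centrin of the centriole lumen, at 2441 TPM, the GTPase RAN, whose gradient guides spindle assembly, at 1189 TPM and the spindle kinase AURKA at 488 TPM. RAN had 2990.5, 2403 and 1311 CPM in HT and 4038, 2391 and 1460.0 CPM in Control. AURKA had 468, 674 and 771 CPM in HT and 442, 553 and 773 CPM in Control, and the groups overlapped for both.

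The smallest unadjusted p-values among them were those of NUMA1, WDR62 and CETN2. NUMA1, which focuses spindle poles, had 7.39, 4.73 and 4.87 CPM in HT and 3.12, 3.17 and 3.69 CPM in Control, all HT libraries being higher, with a log2 fold change of 0.77 (SE 0.27, edgeR unadjusted p = 0.0216). WDR62, a spindle pole protein, had 1.92, 0.869 and 1.41 CPM in HT and 0.577, 0.690 and 0.996 CPM in Control, which overlapped (log2 fold change 0.88, SE 0.41). CETN2 had 1689, 2178 and 1916 CPM in HT and 2528, 2632 and 2322 CPM in Control, all HT libraries being lower, with a log2 fold change of -0.37 (SE 0.18, edgeR unadjusted p = 0.0669). All 3 had an adjusted p of 0.999923. Among the 58 tested partners, all HT libraries were higher in 1 (NUMA1), which held for 3.66% of all genes. They were lower in 2 (CETN2 and AKAP9), which held for 4.05% of all genes. An edgeR unadjusted p below 0.05 was found for 1 of the 58, against 1.85% of all genes.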

How the data were processed

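Poly(A) RNA of 6 libraries, 3 HT and 3 Control, was grouped by the labels' treatment. The authors deposited 3 units for each gene, named in the file headers: whole-number read counts with no normalization, FPKM (fragments scaled by length and library size) and TPM. Tools listed in the submitters' processing notes, with no roles stated, are Trimmomatic 0.38, HISAT2 2.1.0, StringTie 2.1.3b, HISAT and Bowtie2, on the genome build Sscrofa11.1; the sources used here do not give the counting tool or its strand setting. The low-input kit named in the labels (SMART-Seq v4) does not mark strand. Columns of the series table were matched to libraries by name, and as a check 99.4% to 99.5% of the 30376 genes had an FPKM equal within 1e-05 to the library's own file, against at most 27.9% for any other; columns of other samples numbered 0.

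The test was edgeR 4.0.16 under R 4.3.3 (quasi-likelihood, TMM scaling, group as the only term) on the counts as deposited. Its expression filter kept 16056 genes, and p-values were adjusted by Benjamini-Hochberg over these at 0.05. CPM uses TMM-scaled totals of kept genes, with factors of 0.865 for Control replicate 1 and 1 to 1.09 for the rest. Levels are compared between genes on the deposited TPM only. The 24 genes without a symbol held 0.527% to 0.658% of reads per library and stayed in the fit. The library totals of 28114005 to 30079385 reads limit low genes. All 59 members were matched by Entrez ID to RefSeq (Sscrofa11.1) at the same start; 24 overlap the span of another gene, where reads cannot be told apart without strand. No sequences are given.

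Members and lists were chosen with earlier results of these data known. Values in every library are given for called members, the 10 members of smallest p, the 8 of highest TPM and the core genes named by symbol (33 in all), and for the 3 other pathway genes of smallest p and of highest TPM. Replicate numbers were taken as pairing libraries only if each same-numbered pair's deviations correlated above 0.1. Alternatives were DESeq2 1.42.0 (size factors, test), no scaling, other filters, limma 3.58.1 on log2 FPKM or TPM with a pseudocount of 1 (FPKM also 0.1), the replicate number as a block, sums with overlapping genes, and leaving out each library. The tests were tried first on simulated data.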

Additional observations from a re-analysis of the deposited data

How the results depend on the processing

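The count of called members was 0 under every alternative run. Over all genes the count was 1 with no filter on low counts, 5 with the DESeq2 test, 3 with the replicate block and 0 under every other alternative. The members' median log2 fold change of -0.10 changed sign when counts were scaled by library total alone (0.0005) and with limma on log2(FPKM + 1) (0.0045), log2(TPM + 1) (0.0044) and log2(FPKM + 0.1) (0.0245). In the same order the median over all genes, -0.0167 in the reported fit, was 0.0777, 0.0341, 0.0398 and 0.0736, so these settings shifted all genes upward and the members' median stayed below it; leaving out a library gave -0.1207 to -0.0179. Of 33 named members, 13 kept their sign under every alternative and 20 did not; 70 of 534 values had the other sign, 38 of them with a library left out, and 0 passed the threshold.

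With this shift of all genes included, in the order no scaling, FPKM + 1, TPM + 1 and FPKM + 0.1, the log2 fold change was 0.0076, 0.0028, 0.0004 and 0.0031 for CEP192, 0.0588, 0.0787, 0.0805 and 0.0927 for HAUS2, 0.0379, 0.1371, 0.1369 and 0.1455 for HAUS4, 0.0286, 0.0338, 0.0366 and 0.0507 for HAUS7 and 0.035, 0.0382, 0.0449 and 0.0989 for TUBGCP4. CNTROB had 0.0471, 0.0524 and 0.0785 on the 3 log2 scales, and HAUS3 0.0006 with no scaling. HAUS8 had -0.0008 with DESeq2 size factors, -0.0001 with no filter and -0.0025 with the DESeq2 test. NIN had -0.0037 with DESeq2 size factors, -0.0049 with the DESeq2 test and -0.0001 with the replicate block, and HAUS4 had 0.0551 with the block. TUBGCP2 summed with ZNF511 had 0.3812, on 61, 86 and 132 reads of ZNF511 in HT and 28, 58 and 107 in Control, so the sum is mostly reads of ZNF511.

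With a library left out, the log2 fold change ran from -0.2444 to 0.0021 for CDK5RAP2, -0.1017 to 0.1727 for CENPJ, -0.2289 to 0.0168 for CEP152, -0.1845 to 0.0512 for CEP192, -0.2245 to 0.0398 for CEP70, -0.1174 to 0.2051 for CEP95 and -0.4951 to 0.2311 for CNTROB. For HAUS1 to HAUS8 the ranges were -0.248 to 0.0144, -0.4051 to 0.5549, -0.2012 to 0.0673, -0.3628 to 0.3617, -0.5309 to 0.1357, -0.5576 to 0.1625, -0.5901 to 0.6212 and -0.2559 to 0.2219. They were -0.0902 to 0.0987 for NIN, -0.6041 to 0.0827 for PCNT, -0.0841 to 0.0822 for TUBGCP3 and -0.3821 to 0.1922 for TUBGCP4.

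Same-numbered libraries of the groups correlated in their deviations at 0.436, 0.0148 and 0.497 for numbers 1, 2 and 3 over 16056 genes. By the rule above, the numbers were not taken as pairing them. Numbers 1 and 3 went together and ran against each other across groups (-0.477 for HT 3 with Control 1, -0.439 for HT 1 with Control 3). Deviations were taken from the mean of a group's 3 libraries and cancel within it, so part of these negative values follows from that. A library midway between the others of its group deviates little, so the low value for number 2 cannot decide whether the numbers pair the libraries. HT replicate 2 correlated best with Control replicate 1 (0.117), and Control replicate 2 with HT replicate 3 (0.0517). The replicate block gave a members' median of -0.0919. In its edgeR test 4 of 56 members had an unadjusted p below 0.05, a smaller share than the 1485 of 16056 genes. STIL (0.0081), PCM1 (0.0328) and CEP57L1 (0.0367) were lower in HT, and CEP131 (0.0367) was higher. The reported fit, with no replicate term, had 1 of 56 members and 297 of 16056 genes below 0.05. The test of the replicate number as a term was not run. Depth limits PCNT, TUBGCP2, TUBGCP6, CEP131 and CEP250, all below 1 TPM.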

Other observations

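Some centrosome and centriole genes that the symbol rule leaves out were found by their product names after the values were seen. Of those described here, OFD1, CCP110 and ALMS1 were already counted among the partners above. No such gene was called, in a fit that called 0 of all 16056 genes. OFD1, a centriole and satellite protein, averaged 120.0 TPM over the 6 libraries and had 192, 268 and 350.2 CPM in HT and 227, 307 and 436 CPM in Control, a log2 fold change of -0.26 (SE 0.31). CSPP1, of the spindle pole, averaged 88.2 TPM and had 228, 294 and 327 CPM in HT and 257, 310.2 and 350.3 CPM in Control. HYLS1, of the centriole, averaged 45.6 TPM. In OFD1 and CSPP1 replicate 1 was the lowest and replicate 3 the highest library in either group, as in HAUS4.

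CCP110, which with CEP97 caps the centriole end, had 53.5, 68.7 and 83.8 CPM in HT and 51.0, 62.9 and 87.4 CPM in Control. On the TPM scale it averaged 16.8 over the 6 libraries, against 0.389 for CEP97. ALMS1, at the centriole base, had 89.7, 80.9 and 72.0 CPM in HT and 81.55, 82.9 and 71.2 CPM in Control. The groups overlapped in all of these genes, and the adjusted p from edgeR was 0.999923 for each.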
